A study of Mus musculus with 12 samples.

Results

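The genes described here carry out prostaglandin and leukotriene metabolism: Ptgs1, Ptgs2, Ptges, Hpgds, Hpgd, Ptger2, Ptger4, Alox5, Alox5ap and Ltc4s. They were chosen by gene symbol from the deposited count tables, which list 24421 genes, and all 10 were among the 12164 genes that passed the filter on low counts. The libraries came from bone marrow-derived macrophages, primary cells grown from the marrow of male C57BL/6J mice aged 8 weeks, and polyA RNA was sequenced in bulk. Cells carried an siRNA against Ehd1 (siEhd1), an endocytic recycling gene, or a control siRNA (siControl), and were either given lipopolysaccharide (LPS, labelled M1) or left resting (labelled M0). There were 3 libraries each for LPS siEhd1, LPS siControl, resting siEhd1 and resting siControl macrophages. All groups carried an siRNA, so which of the siRNAs moved a gene cannot be told apart here. The sources used here give neither the LPS dose and time nor the siRNA sequences.

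Arachidonic acid released from membranes feeds competing routes. Cyclooxygenases turn it into prostaglandin H2, which terminal synthases convert to prostaglandin E2, prostaglandin D2 and other prostanoids, and 5-lipoxygenase with its partner protein FLAP turns it into leukotrienes. Macrophages exposed to bacterial products are known for inducing cyclooxygenase-2 and making prostaglandin E2, which signals back through the cyclic AMP-coupled receptors EP2 and EP4.

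Library totals lay between 18572725 and 22545272 counts. A level is a count divided by its TMM-scaled library size (CPM), given as mean ± SD of 3 libraries, and log2 fold changes with SE come from edgeR fitted over all tested genes with a threshold of 0.05 on the adjusted p. Ehd1 RNA was reduced in all siEhd1 libraries, to 48.7% of control after LPS (edgeR adjusted p = 2.51e-08) and 59.2% at rest (edgeR adjusted p = 5.73e-07). These percentages are each within a state, and LPS raised Ehd1 11.6-fold with siControl and 9.58-fold with siEhd1. Ehd1 averaged 302 CPM in LPS siEhd1, 620 CPM in LPS siControl, 31.5 CPM in resting siEhd1 and 53.25 CPM in resting siControl cells. A siEhd1 effect is thus relative to the control of its own state, and the Ehd1 level differed between the states. Macrophage markers were all detected (8 of 8), with summed levels of 35190 to 36900 CPM in LPS siEhd1, 32170 to 38650 CPM in LPS siControl, 19640 to 20990 CPM in resting siEhd1 and 23640 to 24300 CPM in resting siControl libraries. Mast cell and basophil markers, cells rich in Hpgds and Ltc4s, summed to at most 2.11 CPM in any library, with Tpsb2, Tpsab1, Mcpt4, Mcpt8 and Ms4a2 (5 of 9) at 0 in all 4 groups. Lymphocyte markers summed to at most 0.484 CPM. Replicates are not stated to be separate animals or cultures, so the p-values measure the spread between these libraries. Fewer cells of a type and less RNA per cell cannot be told apart in bulk RNA.

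Ehd1 knockdown was called for 3 of the 10 genes in each state, with Ptgs1 called in both. After LPS, Ptgs1 and Hpgds were higher and Ptges lower with siEhd1 (2 higher, 1 lower, 7 not called). Over all tested genes 4.44% were called higher and 4.1% lower in that comparison. At rest, Ptgs1 and Ptgs2 were higher and Ptger2 lower with siEhd1 (2 higher, 1 lower, 7 not called), beside 14% higher and 14.2% lower over all genes. The median log2 fold change of the 10 was 0.14 after LPS, against -0.00 over all genes, and -0.07 at rest, against -0.02 over all genes. The test of the difference between these siEhd1 effects, LPS minus resting, called only Ptger2 among the 10 (1 of 10, higher), beside 3.12% of all genes called higher and 2.93% lower. LPS itself moved all 10, with either siRNA.

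LPS raised the genes of inducible cyclooxygenase, microsomal prostaglandin E synthase-1 and the prostaglandin E2 receptors EP2 and EP4, and lowered the other 6 of the set. With siEhd1, Ptgs2, Ptges, Ptger2 and Ptger4 rose and Ptgs1, Hpgds, Hpgd, Alox5, Alox5ap and Ltc4s fell (4 higher, 6 lower, beside 32.9% higher and 34% lower over all genes). With siControl the same 4 rose and the same 6 fell, beside 34.8% higher and 34% lower over all genes. The median was -0.98 with siEhd1, against -0.02 over all genes, and -1.14 with siControl, against -0.01 over all genes. Of 12164 genes, 28 had a larger positive LPS change with siControl than Ptges and 40 a larger one than Ptgs2, and for Hpgd 1 gene had a lower fitted value. LPS and resting libraries came in separate tables with no batch given, so a difference in handling cannot be told apart from LPS.

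**Figure D1:**
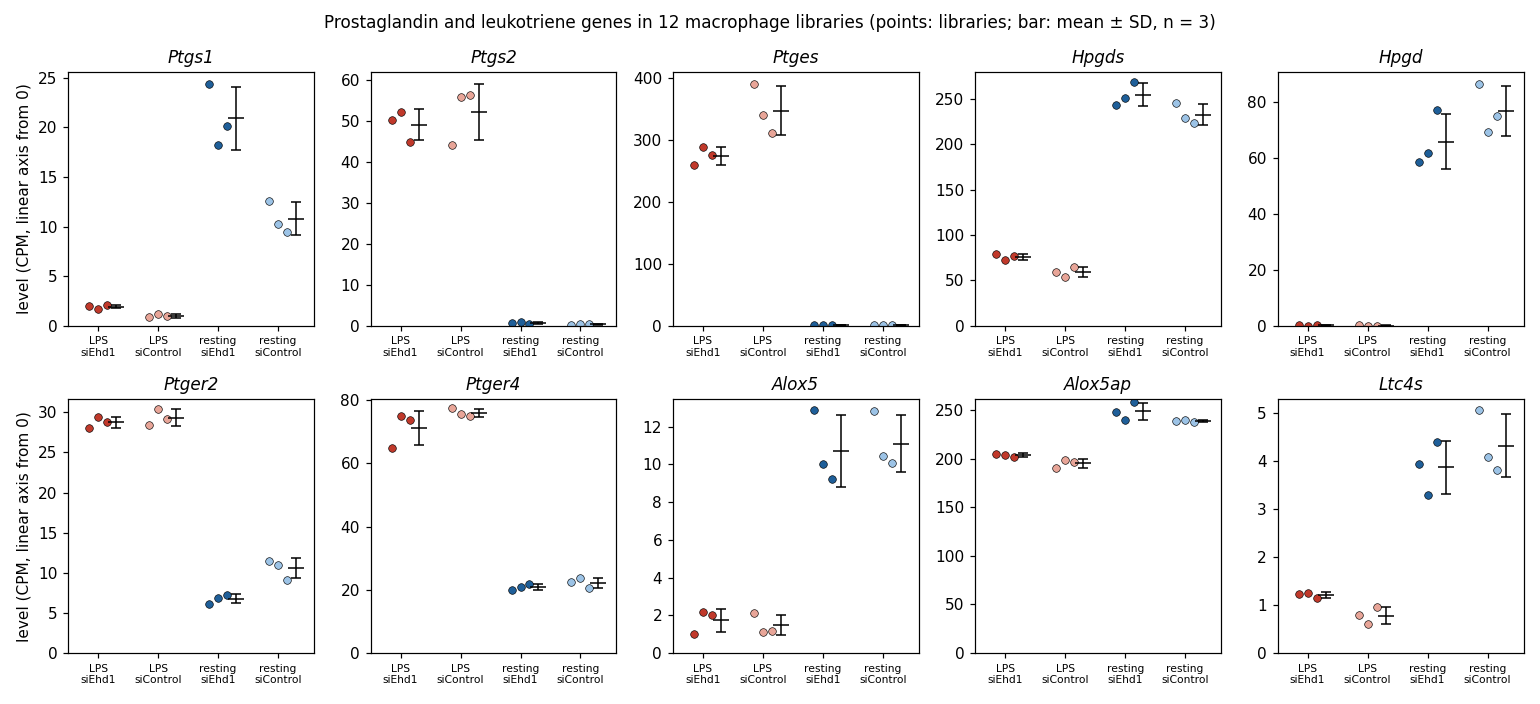
Level in CPM (linear axis from 0) of each of the 10 genes in every library, with bars for mean ± SD of 3 libraries. Ptges stood between 260 and 391 CPM after LPS and at most 1.49 CPM at rest, while Hpgd stood at most at 0.295 CPM after LPS and at least at 58.6 CPM at rest.

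Promoter windows of the genes with the largest LPS changes in either direction, Ptges and Ptgs2 upward and Hpgd downward, are shown because these genes moved furthest. They are RefSeq windows of GRCm38.p6, 250 bases before to 50 after the start, read 5′ to 3′ on the gene's strand. The Ptges window lies inside the annotated gene (chr2:30889471-30929863, minus strand), away from its outer 5′ end. Ptges has 4 annotated transcripts, and which start these cells use was not tested. Capitals mark matches to the C/EBP motif TTNNGNAA, the CRE core TGACG, the E-box CACGTG or the TATA box TATAAA. Positions count from 1 at the 5′ end of the window.
Ptgs2, chr1:150099781-150100080, plus strand: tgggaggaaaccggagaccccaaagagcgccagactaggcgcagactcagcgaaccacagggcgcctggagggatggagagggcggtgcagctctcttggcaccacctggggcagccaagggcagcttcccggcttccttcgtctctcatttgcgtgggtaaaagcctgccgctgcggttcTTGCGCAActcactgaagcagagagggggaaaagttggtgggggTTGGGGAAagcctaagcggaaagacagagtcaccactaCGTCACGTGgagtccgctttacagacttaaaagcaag
Ptges, chr2:30903248-30903547, minus strand: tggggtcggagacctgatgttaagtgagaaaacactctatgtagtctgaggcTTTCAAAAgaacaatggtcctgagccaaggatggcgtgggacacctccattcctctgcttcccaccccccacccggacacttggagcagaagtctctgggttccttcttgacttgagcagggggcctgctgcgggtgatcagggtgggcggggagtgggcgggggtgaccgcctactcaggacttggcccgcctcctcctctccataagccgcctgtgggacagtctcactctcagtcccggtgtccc
Hpgd, chr8:56294302-56294601, plus strand: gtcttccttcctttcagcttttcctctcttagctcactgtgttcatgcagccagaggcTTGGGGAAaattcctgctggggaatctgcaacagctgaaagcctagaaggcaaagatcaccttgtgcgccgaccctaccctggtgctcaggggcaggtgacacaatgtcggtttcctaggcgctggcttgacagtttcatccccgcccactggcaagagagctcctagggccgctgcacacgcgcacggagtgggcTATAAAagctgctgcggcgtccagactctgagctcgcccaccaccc

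In the Ptgs2 window the C/EBP motif matched at 182 to 189 and at 226 to 233, and a CRE core on the other strand at 264 to 268 overlapped an E-box at 267 to 272. Ptges held a C/EBP match at 53 to 60 on the other strand, and Hpgd held a C/EBP match at 59 to 66 and a TATA box at 255 to 260. Windows were found for 9 of the 10 genes, all but Alox5ap. The C/EBP motif was in 5 of the 9 (Ptgs2, Ptges, Hpgds, Hpgd and Ptger2) and in 40.7% of 32851 windows in the table, and it was held by genes that LPS raised and by genes that it lowered. The PU.1 core AGGAAG was also in 5 of 9 (Ptgs1, Ptgs2, Hpgds, Hpgd and Ltc4s) and in 35.4% of all windows. Ptgs2 alone held the CRE core (20.8% of all windows) and the E-box (7.15%), and Hpgd alone the TATA box (8.32%). The NF-kB consensus (4.51%), the full CRE TGACGTCA (1.79%), AP-1 TGANTCA (7.81%) and the ISRE (3.44%) matched 0 of the 9 windows, which says only that these letters were not there. All motifs were searched on both strands except the TATA box, which was read on the gene's strand.

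Ptgs1 encodes cyclooxygenase-1, the form found in most resting cells. It was the one gene of the set called higher with siEhd1 in both states. Ptgs1 (ENSMUSG00000047250.13, chr2:36230426-36252272, plus strand, GRCm38) stood at 1.97, 1.74 and 2.12 CPM in LPS siEhd1 libraries, against 0.839, 1.24 and 0.999 CPM in LPS siControl libraries. The resting values were 24.4, 18.2 and 20.1 CPM with siEhd1, against 12.6, 10.3 and 9.48 CPM with siControl. In each state all 3 siEhd1 libraries lay above all 3 siControl libraries. With siEhd1 the level was 188% of control after LPS (0.91 on the log2 scale, SE 0.26, edgeR adjusted p = 0.0304) and 194% at rest (0.95, SE 0.12, edgeR adjusted p = 3.97e-06). The resting call held under all 21 alternatives. The call after LPS rests on 36 to 40 counts in siEhd1 and 17 to 25 counts in siControl libraries, and was not kept by limma-voom or without LPS siControl replicate 1 or 3 or any 1 of the LPS siEhd1 libraries (adjusted p 0.0072 to 0.123 over the alternatives). LPS lowered Ptgs1 with siEhd1 (1.94 ± 0.191 against 20.9 ± 3.19 CPM, log2 fold change -3.43, SE 0.15) and with siControl (1.03 ± 0.202 against 10.8 ± 1.64 CPM, -3.39, SE 0.19). The difference between the siEhd1 effects was -0.04 (SE 0.31, edgeR adjusted p = 0.971).

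Platelets and megakaryocytes are other rich sources of Ptgs1, and their marker sum was also higher in siEhd1 than in siControl libraries of each state. The 6 markers summed to 560 to 622 CPM in LPS siEhd1 and 407 to 520 CPM in LPS siControl libraries, and to 19.7 to 20.1 CPM in resting siEhd1 and 10.8 to 12.4 CPM in resting siControl libraries. Nearly all of it was Pf4, a chemokine that macrophages can also express, with means of 562 CPM in LPS siEhd1, 435 CPM in LPS siControl, 18.1 CPM in resting siEhd1 and 9.11 CPM in resting siControl cells. The platelet gene Gp9 averaged at most 0.0293 CPM in any group. Of the 3 markers tested, 1 was called higher with siEhd1 in each state, beside 4.44% of all genes after LPS and 14% at rest. The median log2 fold change of the 3 was 0.32 after LPS and -0.48 at rest. At rest Ppbp averaged 0.114 CPM with siEhd1 and 0.161 CPM with siControl, and Gp1ba 1.48 CPM with siEhd1 and 2.12 CPM with siControl. The part of these markers in the Ptgs1 result was not tested.

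Ptgs2 encodes cyclooxygenase-2, the inducible form. LPS raised it with both siRNAs, and the siEhd1 and siControl libraries overlapped after LPS. Ptgs2 (ENSMUSG00000032487.8, chr1:150100031-150108227, plus strand) stood at 50.3, 52.4 and 44.9 CPM in LPS siEhd1 libraries, against 44.3, 56.0 and 56.5 CPM in LPS siControl libraries (log2 fold change -0.09, SE 0.08, edgeR adjusted p = 0.613). Resting libraries had 0.769, 0.940 and 0.553 CPM with siEhd1, against 0.308, 0.351 and 0.351 CPM with siControl. The resting groups did not overlap, but these values are 13 to 22 counts per siEhd1 library and 7 to 8 counts per siControl library. The resting effect of siEhd1 was 1.15 (SE 0.38, 222% of control, edgeR adjusted p = 0.0284). Neither limma-voom nor fits without any 1 of the resting siControl libraries or resting siEhd1 replicate 1 or 2 kept that call (adjusted p 0.00699 to 0.119). The LPS change was 64.8-fold with siEhd1 (log2 6.02, SE 0.15) and 153-fold with siControl (7.25, SE 0.17). The difference, -1.24 (SE 0.39), was not called (edgeR adjusted p = 0.0664), and passed under 5 of 20 alternatives: DESeq2, no low count filter, the replicate block shared by all groups, and without resting siEhd1 replicate 3 or LPS siControl replicate 1 (adjusted p 0.0127 to 0.215).

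Ptges encodes microsomal prostaglandin E synthase-1, which works with cyclooxygenase-2 to make prostaglandin E2. It had the largest LPS increase of the set and was lower with siEhd1 after LPS. Ptges (ENSMUSG00000050737.13, chr2:30889471-30929863, minus strand) stood at 260, 289 and 276 CPM in LPS siEhd1 libraries, against 391, 341 and 311 CPM in LPS siControl libraries. The highest siEhd1 library stayed below the lowest siControl library. With siEhd1 the level was 79.0% of control (-0.34 on the log2 scale, SE 0.07, edgeR adjusted p = 0.00267), and the call held under all 21 alternatives (adjusted p 0.00024 to 0.0274). In resting cells the values were 1.07, 0.726 and 0.937 CPM with siEhd1, against 1.28, 1.45 and 1.49 CPM with siControl, with no overlap on 17 to 34 counts per library. The resting effect, -0.62 (SE 0.24, 64.9% of control), was not called (edgeR adjusted p = 0.0613) and passed with DESeq2, without a low count filter, and without LPS siControl replicate 1 or 3 (adjusted p 0.0262 to 0.21). The LPS change was 8.23 on the log2 scale with siEhd1 (SE 0.12) and 7.95 with siControl (SE 0.11). The difference between the siEhd1 effects was 0.28 (SE 0.25, edgeR adjusted p = 0.598). Ptges was also the one gene of the 10 whose searched 3′ UTR held GCCTTGT, a 7-base sequence searched with earlier results of these data known. The sequence was in 16.2% of 11246 tested genes with a 3′ UTR, and its part in the Ptges result was not tested.

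Hpgds encodes hematopoietic prostaglandin D synthase, which makes prostaglandin D2. It was higher with siEhd1 after LPS, the opposite direction to Ptges. Hpgds (ENSMUSG00000029919.5, chr6:65117293-65144908, minus strand) stood at 79.5, 72.7 and 76.9 CPM in LPS siEhd1 libraries, against 58.9, 53.5 and 64.4 CPM in LPS siControl libraries. The groups did not overlap. With siEhd1 the level was 130% of control (0.37 on the log2 scale, SE 0.07, edgeR adjusted p = 0.00114), a call that held under all 21 alternatives (adjusted p 8.49e-06 to 0.0123). Resting levels were 244, 252 and 269 CPM with siEhd1, against 246, 229 and 224 CPM with siControl. These groups overlapped, and the effect of 0.13 (SE 0.06, edgeR adjusted p = 0.123) was not called. The difference between the states, 0.24 (SE 0.09, edgeR adjusted p = 0.132), was called only without LPS siControl replicate 3 (adjusted p 0.029 to 0.319). LPS lowered Hpgds by a log2 fold change of -1.74 (SE 0.07) with siEhd1 and -1.98 (SE 0.07) with siControl. In counts within a library, Ptges was 3.27 to 3.97 times Hpgds in LPS siEhd1 and 4.83 to 6.64 times Hpgds in LPS siControl libraries, with no overlap. After LPS this follows from the levels of both genes, which separated in opposite directions, and adds nothing to them. At rest the ratio was 0.00288 to 0.00438 with siEhd1 and 0.00518 to 0.00668 with siControl, again with no overlap. These ratios compare libraries and are not per length.

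Hpgd encodes 15-hydroxyprostaglandin dehydrogenase, the enzyme that inactivates prostaglandin E2 and related prostaglandins. It fell close to the limit of detection after LPS. Hpgd (ENSMUSG00000031613.9, chr8:56294585-56321043, plus strand) had 6, 1 and 4 counts in LPS siEhd1 libraries and 3, 1 and 0 counts in LPS siControl libraries. At rest it had 1373, 1444 and 1805 counts with siEhd1 (58.6, 61.7 and 76.9 CPM), against 1961, 1574 and 1705 counts with siControl (86.3, 69.0 and 74.8 CPM). The LPS level was 349-fold lower with siEhd1 (11 against 4622 counts, exact 95% counting interval 195 to 700) and 1180-fold lower with siControl (4 against 5240 counts, interval 460 to 4330). These intervals cover counting error only. The fall was called with both siRNAs (edgeR adjusted p = 6.41e-12 with siEhd1 and 3.01e-12 with siControl). After LPS the ratio of siEhd1 to siControl was 2.89, with a counting interval of 0.857 to 12.5, so a difference was not detectable at this depth. At rest the groups overlapped and the effect of siEhd1 was -0.22 (SE 0.11, edgeR adjusted p = 0.168). That effect was called without resting siEhd1 replicate 3, the library with the highest level of its group (adjusted p 0.0168 to 0.478 over the alternatives).

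**Figure D2:**
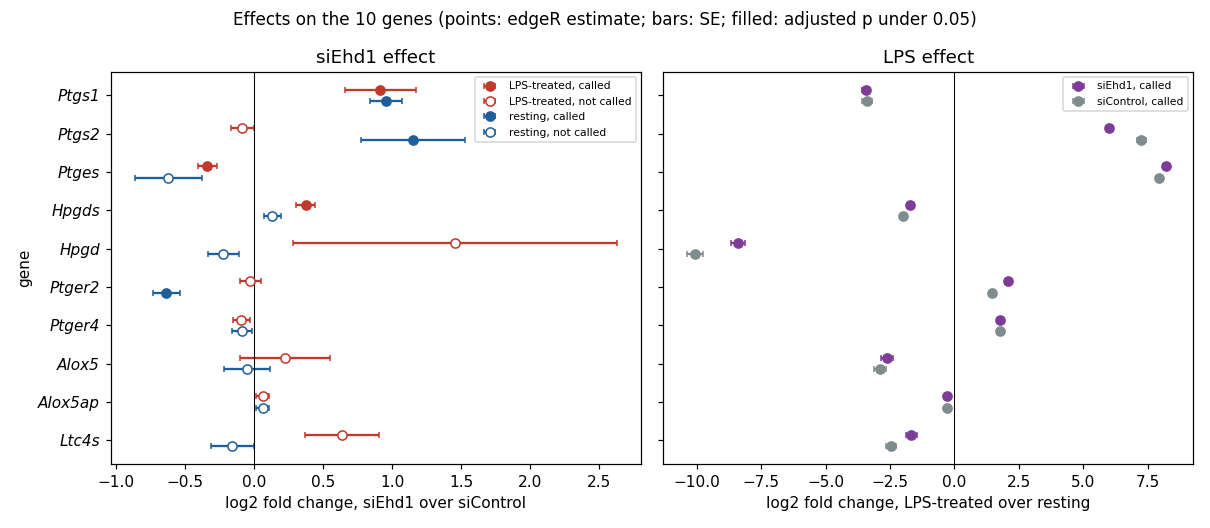
Log2 fold change of each gene with its SE, for siEhd1 over siControl on the left and LPS-treated over resting on the right, with filled points for an edgeR adjusted p under 0.05. Ptgs1 lies right of 0 in both states, Ptger2 lies at -0.03 after LPS and -0.64 at rest, and every LPS effect is called.

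Ptger2 encodes the prostaglandin E2 receptor EP2. It was lower with siEhd1 at rest, and its 2 LPS groups overlapped. Ptger2 (ENSMUSG00000037759.6, chr14:44988195-45003820, plus strand) stood at 28.1, 29.4 and 28.7 CPM in LPS siEhd1 libraries, against 28.4, 30.4 and 29.2 CPM in LPS siControl libraries (log2 fold change -0.03, SE 0.08, edgeR adjusted p = 0.87). At rest it stood at 6.15, 6.92 and 7.28 CPM with siEhd1, against 11.5, 11.01 and 9.13 CPM with siControl. The resting groups did not overlap. The resting level with siEhd1 was 64.3% of control (-0.64, SE 0.10, edgeR adjusted p = 4.93e-05). The difference between the siEhd1 effects, LPS minus resting, was 0.61 (SE 0.12, edgeR adjusted p = 0.00457). The resting call and the difference held under all alternatives, with adjusted p up to 0.000739 and 0.0234. The same contrast reads as an LPS increase of 4.23-fold with siEhd1 (log2 2.08, SE 0.09) and 2.78-fold with siControl (1.48, SE 0.08). Macrophage markers moved at rest too: 5 of 8 were lower with siEhd1 and 0 higher (median log2 fold change -0.21), beside 14.2% lower and 14% higher over all genes. In the difference between states, 3 of the 8 macrophage markers were called higher, as Ptger2 was, and 0 lower. Over all genes 3.12% were called higher and 2.93% lower there. Stromal and endothelial markers summed to 15.5 to 22.04 CPM in resting siEhd1 and 28.3 to 29.3 CPM in resting siControl libraries. Most of that was Kdr, and 2 of 7 tested stromal and endothelial markers were lower with siEhd1 at rest (median -0.45) and 0 higher. After LPS the sums were 40.1 to 50.5 CPM with siEhd1 and 34.1 to 53.4 CPM with siControl, and none of these 8 markers was at 0 in a whole group. The part of either marker list in the Ptger2 result was not tested.

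Ptger4 encodes EP4, the other cyclic AMP-coupled prostaglandin E2 receptor. LPS raised it, and siEhd1 was not called in either state. Ptger4 (ENSMUSG00000039942.15, chr15:5206661-5244187, minus strand) stood at 64.9, 74.9 and 73.7 CPM in LPS siEhd1 libraries, against 77.5, 75.6 and 75.0 CPM in LPS siControl libraries (log2 fold change -0.10, SE 0.06, edgeR adjusted p = 0.414). At rest it stood at 19.9, 20.9 and 21.8 CPM with siEhd1, against 22.4, 23.8 and 20.5 CPM with siControl (-0.09, SE 0.07, edgeR adjusted p = 0.376). The LPS siEhd1 libraries all lay just below the LPS siControl ones, and the resting groups overlapped. The LPS increase was 3.41-fold with siEhd1 and 3.42-fold with siControl (log2 1.77 and 1.78, SE 0.07 each). A pseudogene on the opposite strand, Gm15937, covers 15.3% of the Ptger4 exon bases, and the sources used here do not give the strand setting of the counts. The count of Ptger4 was 2.31 to 2.56 times that of Ptger2 in LPS siEhd1 libraries and 2.48 to 2.73 times in LPS siControl libraries, which overlap. At rest it was 2.99 to 3.24 times with siEhd1 and 1.94 to 2.24 times with siControl, which do not.

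Alox5 and Alox5ap encode 5-lipoxygenase and FLAP, the protein that presents arachidonic acid to it. LPS lowered both, Alox5 much more than Alox5ap, and siEhd1 was called for neither gene. Alox5 (ENSMUSG00000025701.12, chr6:116410077-116461178, minus strand) stood at 1.03, 2.18 and 2.01 CPM in LPS siEhd1 libraries, against 2.12, 1.14 and 1.19 CPM in LPS siControl libraries. Resting levels were 12.9, 10.04 and 9.24 CPM with siEhd1, against 12.8, 10.4 and 10.1 CPM with siControl. The siEhd1 and siControl libraries overlapped in both states (log2 fold change 0.22 after LPS, SE 0.32, edgeR adjusted p = 0.768, and -0.05 at rest, SE 0.17, edgeR adjusted p = 0.854). After LPS Alox5 was at 16.2% of its resting level with siEhd1 (-2.63, SE 0.23) and 13.4% with siControl (-2.90, SE 0.23). Neutrophils also express both genes, and their markers summed to 77.6 to 100.3 CPM in LPS siEhd1, 43.3 to 74.1 CPM in LPS siControl, 14.3 to 21.1 CPM in resting siEhd1 and 19.9 to 22.2 CPM in resting siControl libraries. Most of that was Mmp8, and S100a8 averaged at most 2.99 CPM in any group. Of the 9 neutrophil markers 3 passed the count filter, Elane and Mpo were at 0 in LPS siEhd1 libraries, and the part of these markers in the Alox5 result was not tested.

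Alox5ap (ENSMUSG00000060063.9, chr5:149264767-149288153, plus strand) stood at 205, 204 and 202 CPM in LPS siEhd1 libraries, against 190, 199 and 197 CPM in LPS siControl libraries. At rest it stood at 249, 239.9 and 258 CPM with siEhd1, against 239, 239.7 and 238 CPM with siControl. All siEhd1 libraries lay above all siControl libraries of the same state, but by little, and neither effect was called (0.06, SE 0.05, edgeR adjusted p = 0.495 after LPS and 0.06, SE 0.05, edgeR adjusted p = 0.365 at rest). LPS lowered it to 81.9% of its resting level with siEhd1 and 81.8% with siControl (-0.29, SE 0.05 each). An antisense gene, Gm19719, covers 13.3% of its exon bases.

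Ltc4s encodes leukotriene C4 synthase, which joins leukotriene A4 to glutathione. LPS lowered it with both siRNAs. Ltc4s (ENSMUSG00000020377.15, chr11:50236461-50238616, minus strand) stood at 1.23, 1.26 and 1.15 CPM in LPS siEhd1 libraries, against 0.789, 0.595 and 0.951 CPM in LPS siControl libraries. The groups did not overlap on 20 to 26 counts per siEhd1 library and 12 to 20 per siControl library, and the effect of 0.63 (SE 0.27, edgeR adjusted p = 0.165) was not called. At rest it stood at 3.93, 3.29 and 4.39 CPM with siEhd1, against 5.06, 4.08 and 3.82 CPM with siControl, which overlap (-0.16, SE 0.15, edgeR adjusted p = 0.479). The LPS change was -1.67 (SE 0.20) with siEhd1 and -2.46 (SE 0.21) with siControl, and the difference of 0.79 (SE 0.31) was not called (edgeR adjusted p = 0.151). The antisense gene Gm26542 covers 26.4% of the Ltc4s exon bases. Eosinophil markers, of another cell type that uses Ltc4s, summed to 41.9 to 48.3 CPM in LPS siEhd1, 38.3 to 40.6 CPM in LPS siControl, 34.5 to 40.5 CPM in resting siEhd1 and 21.9 to 27.6 CPM in resting siControl libraries. Most of that was Ccr3 and Siglecf, which LPS moved in opposite directions, and Il5ra was at 0 in every group. Siglecf averaged 1.66 CPM in LPS siEhd1, 1.15 CPM in LPS siControl, 22.4 CPM in resting siEhd1 and 12.1 CPM in resting siControl cells. Ccr3 averaged 43.3, 38.6, 14.8 and 13.5 CPM in the same order. The part of these markers in the Ltc4s result was not tested.

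Per exon length, Alox5ap was the most abundant of the set in every group, at 144 CPM per kilobase in LPS siEhd1, 138 in LPS siControl, 175 in resting siEhd1 and 168 in resting siControl cells. After LPS Ptges came next, at 69.9 CPM per kilobase with siEhd1 and 88.5 with siControl. Hpgds (11.9), Ptgs2 (10.7) and Ptger4 (10.7) followed in LPS siEhd1 cells, where Hpgds and Ptgs2, and Ptgs2 and Ptger4, overlapped. Ptger2 (5.53), Ltc4s (1.19), Ptgs1 (0.5), Alox5 (0.424) and Hpgd (0.113) made up the lower end, with Ptgs1 and Alox5 overlapping. In LPS siControl cells Hpgds (9.17 CPM per kilobase) lay behind Ptgs2 and Ptger4 (11.4 each), and Alox5 (0.361) ahead of Ptgs1 (0.264). There the libraries of Hpgds and Ptgs2, of Ptgs2 and Ptger4, and of Alox5 and Ptgs1 overlapped.

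At rest, Hpgds (39.7 CPM per kilobase with siEhd1 and 36.2 with siControl) and Hpgd (39.0 and 45.6) came after Alox5ap. Their libraries overlapped with siEhd1 and not with siControl, where Hpgd was the higher. With siEhd1 the order went on with Ptgs1 (5.39), Ltc4s (3.81), Ptger4 (3.14), Alox5 (2.61) and Ptger2 (1.31), where Ltc4s and Ptger4, and Ptger4 and Alox5, overlapped. With siControl it was Ltc4s (4.26), Ptger4 (3.34), Ptgs1 (2.78), Alox5 (2.7) and Ptger2 (2.03), and neither Ptger4 and Ptgs1 nor Ptgs1 and Alox5 differed beyond their spread. Ptges (0.232 with siEhd1 and 0.357 with siControl) and Ptgs2 (0.165 and 0.0735) were last at rest with either siRNA.

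**Figure D3:**
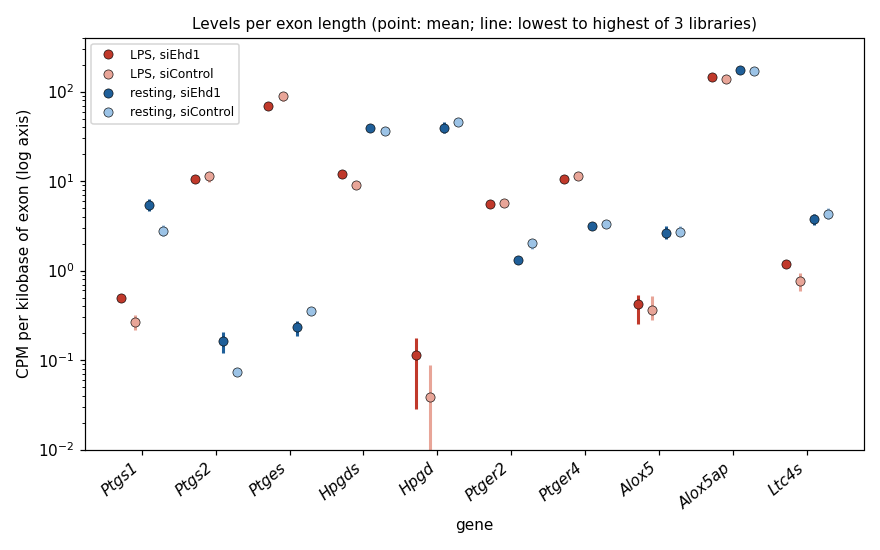
Level per kilobase of exon (CPM per kilobase, log axis) of each gene in the 4 groups, as the mean with a line from the lowest to the highest of 3 libraries. Alox5ap stays between 138 and 175, while Ptges and Hpgd trade places between LPS-treated and resting cells.

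The genes whose log2 CPM over the 12 libraries was most like each of the 10 were found by Pearson's r among 9830 other tested genes. The libraries fall into an LPS and a resting cluster, so r mostly reflects the LPS change and is given as a description. For genes that LPS raised, the 3 most alike were Lcn2, Ier3 and Slc31a1 for Ptges (r from 0.999 to 0.9996), Bst1, Cpd and Cd164 for Ptgs2, Atrnl1, Fpr2 and Ctsc for Ptger4, and Bmp2k, Pyhin1 and Parp9 for Ptger2. For genes that LPS lowered, they were Adcy7, Lrmp and B4galt4 for Ptgs1, Gpr155, Pros1 and Arap3 for Hpgds, and Cracr2b, Cdc42ep3 and Arl11 for Hpgd. Alox5 had Def6, Lmo2 and Zc3h4, with r of at most 0.986. Alox5ap had Cd9, Ckb and Inpp5f, and Ltc4s had Ttc38, Gm14461 and Hmga2-ps1.

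Other genes of the pathway were taken from a list of 66, of which 41 passed the count filter. With siEhd1 after LPS, 3 were higher, 4 lower and 34 not called, with a median of -0.01, beside 4.44% of all genes higher and 4.1% lower. At rest 8 were higher, 7 lower and 26 not called, with a median of 0.04, beside 14% higher and 14.2% lower over all genes. The difference between the states was called higher for 2 and lower for 5, beside 3.12% and 2.93% of all genes. LPS raised 21 and lowered 12 with siEhd1 (32.9% and 34% of all genes), and raised 21 and lowered 13 with siControl (34.8% and 34% of all genes).

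Among phospholipases and genes of arachidonate supply (12 of 19 tested), Pla2g4a had the largest resting siEhd1 effect and the largest difference between states. Pla2g4a encodes cytosolic phospholipase A2, which frees arachidonic acid from membranes. It averaged 62.9 ± 0.5002 CPM in LPS siEhd1 and 71.5 ± 2.05 CPM in LPS siControl cells, and 14.3 ± 1.22 CPM in resting siEhd1 and 7.66 ± 0.874 CPM in resting siControl cells. It rose with siEhd1 at rest (log2 fold change 0.90, SE 0.09, edgeR adjusted p = 1.88e-07), while after LPS all siEhd1 libraries lay below all siControl libraries without a call (-0.18, SE 0.06, edgeR adjusted p = 0.0775). The difference was called (-1.08, SE 0.11, edgeR adjusted p = 6.5e-06), and both calls held under all alternatives. The LPS change of Pla2g4a was 2.14 with siEhd1 and 3.22 with siControl.

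Pla2g7, the platelet-activating factor acetylhydrolase, fell with siEhd1 after LPS (550 ± 33.5 against 700 ± 2.13 CPM, -0.35, SE 0.06, edgeR adjusted p = 0.000586) and had 0.04 at rest, a difference that was called (-0.39, SE 0.09, edgeR adjusted p = 0.00781). LPS raised it by 3.23 with siEhd1 and 3.62 with siControl. Acsl4, which links arachidonic acid to coenzyme A, rose with siEhd1 at rest (0.27, SE 0.06, edgeR adjusted p = 0.00106). Mboat7, which returns arachidonic acid to phosphatidylinositol, fell at rest (-0.20, SE 0.06, edgeR adjusted p = 0.0239). The Mboat7 call was lost without resting siEhd1 replicate 1 or 3 or resting siControl replicate 1 or 3 (adjusted p up to 0.125). The phospholipase Pla2g16 fell with siEhd1 after LPS (-0.47, SE 0.14, edgeR adjusted p = 0.0481), a call lost under 12 of 21 alternatives, among them without any 1 LPS library or replicate 2 of either resting group (adjusted p up to 0.148). Pla2g15, a lysosomal phospholipase, was called only in the difference (0.33, SE 0.09, edgeR adjusted p = 0.028), and that was lost under 6 of 20 alternatives: the replicate block within each table, and without LPS siEhd1 replicate 2 or 3, LPS siControl replicate 3, resting siEhd1 replicate 1 or resting siControl replicate 1 (adjusted p up to 0.0979).

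Of 7 tested prostanoid synthases other than Ptges and Hpgds, 0 were called with siEhd1 after LPS by edgeR, and 0 by DESeq2 or limma-voom. At an unadjusted edgeR p under 0.05 there were 2, Ptges3 and Ptges2, which encodes microsomal prostaglandin E synthase-2. The share of all genes at that unadjusted threshold is not given here, so this count cannot be judged against it. Over all genes edgeR called 4.44% higher and 4.1% lower with siEhd1 after LPS, so 0 of 7 says little about these synthases. At rest Ptges3, cytosolic prostaglandin E synthase and a co-chaperone, rose with siEhd1 (0.26, SE 0.08, edgeR adjusted p = 0.0168) and the carbonyl reductase gene Cbr3 fell (-0.22, SE 0.07, edgeR adjusted p = 0.0268). The Ptges3 effect differed between states (-0.44, SE 0.11, edgeR adjusted p = 0.0192). Both Ptges3 calls were lost without resting siEhd1 replicate 1 or 2 or resting siControl replicate 1 or 2, with adjusted p up to 0.0861 at rest and 0.0617 for the difference. The Cbr3 call was lost under 8 of 21 alternatives, including without resting siEhd1 replicate 1 or 2 or any 1 resting siControl library (adjusted p up to 0.0959). Fam213b, a prostamide and prostaglandin F synthase, rose with LPS by 1.93 with siEhd1 and 1.65 with siControl.

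In breakdown and transport (4 of 5 tested), Abcc4, an exporter of prostaglandins, rose with siEhd1 at rest (0.29, SE 0.07, edgeR adjusted p = 0.00287). Its difference between states (-0.32, SE 0.09, edgeR adjusted p = 0.0452) was lost under 15 of 20 alternatives, 10 of them the leaving out of 1 library (all but resting siControl replicate 3 and LPS siControl replicate 3; adjusted p up to 0.132). LPS raised Abcc4 by 0.58 with siEhd1 and 0.90 with siControl. The prostaglandin reductase gene Zadh2 rose with siEhd1 at rest (0.20, SE 0.06, edgeR adjusted p = 0.0264), a call lost with DESeq2, with the replicate block within each table, and without resting siEhd1 replicate 2 or 3 or resting siControl replicate 1 or 3 (adjusted p up to 0.121). Another prostaglandin reductase, Ptgr2, fell with LPS by 0.48 with siEhd1 and by 0.52 with siControl on the log2 scale. Gm47484, on the opposite strand, covers 32.0% of the Ptgr2 exon bases, and the strand setting of the counts is not given.

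Among the other prostanoid receptors (3 of 7 tested), 0 were called with siEhd1 in either state by edgeR, DESeq2 or limma-voom. At an unadjusted edgeR p under 0.05 there were 0 after LPS and 1 at rest, Ptger1, the gene of receptor EP1. The share of all genes at the unadjusted threshold is not given here, so these counts cannot be judged against it. Over all genes edgeR called 4.44% higher and 4.1% lower with siEhd1 after LPS, and 14% higher and 14.2% lower at rest. Beside these shares, 0 of 3 says little about the receptors. Ptger3, which encodes the inhibitory prostaglandin E2 receptor EP3, went the other way from Ptger2 and Ptger4 under LPS. It had 0 counts in LPS siEhd1 against 121 in resting siEhd1 libraries, at least 33.5-fold lower against a floor of 3 counts per group, and 3 counts in LPS siControl against 141 in resting siControl libraries. Ptgir, the prostacyclin receptor, rose with LPS by 0.72 with siEhd1 and 0.70 with siControl. The count of Ptger1 is uncertain because the strand setting of the counts is not given in the sources used here. Of the other lipoxygenases, 1 of 6 was tested: Alox12 averaged 0.459 CPM in LPS siEhd1, 0.585 CPM in LPS siControl, 0.0852 CPM in resting siEhd1 and 0.0733 CPM in resting siControl cells, and LPS raised it with both siRNAs.

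Among genes of leukotriene synthesis, breakdown and export (11 of 14 tested), 3 were higher and 2 lower with siEhd1 after LPS, beside 4.44% and 4.1% of all genes. At rest 2 were higher and 4 lower, beside 14% and 14.2% of all genes. Abcc1, which exports leukotriene C4, fell with siEhd1 in both states, at 343 ± 5.83 against 446 ± 18.2 CPM after LPS (-0.38, SE 0.05, edgeR adjusted p = 7.42e-05) and 189 ± 8.87 against 223 ± 7.17 CPM at rest (-0.24, SE 0.05, edgeR adjusted p = 0.00183). Both calls held under all 21 alternatives. Of its 4 searched transcripts with a 3′ UTR, 1 held GCCTTGT, whose part was not tested. Mgst3, a microsomal glutathione transferase that can make leukotriene C4, rose with siEhd1 after LPS (0.37, SE 0.10, edgeR adjusted p = 0.0231) and at rest (0.43, SE 0.07, edgeR adjusted p = 0.000116). The call after LPS was lost with limma-voom, with only the groups compared in the fit, and without LPS siEhd1 replicate 1 or 2 or LPS siControl replicate 1 or 3 (adjusted p up to 0.105). Mgst1, a related transferase, averaged 68.8 ± 2.66 CPM in LPS siEhd1 against 66.8 ± 1.61 CPM in LPS siControl cells, and 25.3 ± 3.73 CPM in resting siEhd1 against 42.5 ± 1.02 CPM in resting siControl cells. It fell with siEhd1 at rest (-0.75, SE 0.08, edgeR adjusted p = 3.8e-07), and the difference between states was called (0.79, SE 0.10, edgeR adjusted p = 8.61e-05).

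Cyp4f18, which inactivates leukotriene B4 in mouse, fell at rest with siEhd1 (9.94 ± 0.860 against 15.2 ± 1.70 CPM, -0.62, SE 0.13, edgeR adjusted p = 0.00111). Its relative Cyp4f13 fell at rest (-0.35, SE 0.06, edgeR adjusted p = 0.000366), and its call after LPS (-0.22, SE 0.07, edgeR adjusted p = 0.0491) was lost under 18 of 21 alternatives, with adjusted p up to 0.2. All alternatives that left out 1 library lost it except those without LPS siEhd1 replicate 2 or LPS siControl replicate 1. Cyp4f genes form a family of near copies, so reads may be split among them. Dpep2, a dipeptidase that cleaves leukotriene D4, rose with siEhd1 after LPS (0.24, SE 0.06, edgeR adjusted p = 0.0136), and lost that call without LPS siEhd1 replicate 2 or LPS siControl replicate 1 (adjusted p up to 0.0709). Cotl1, a 5-lipoxygenase binding protein, also rose after LPS (0.20, SE 0.06, edgeR adjusted p = 0.031). The Cotl1 call was lost with only the groups compared in the fit, with either replicate block, and without LPS siEhd1 replicate 1 or 2 or LPS siControl replicate 3 (adjusted p up to 0.169). Lta4h, leukotriene A4 hydrolase, rose at rest (0.16, SE 0.06, edgeR adjusted p = 0.0434) and lost the call under 11 of 21 alternatives, including without resting siEhd1 replicate 1 or 2, resting siControl replicate 1 or 2, LPS siEhd1 replicate 1 or 3 or LPS siControl replicate 2 (adjusted p up to 0.221).

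The cysteinyl leukotriene receptor genes moved in opposite directions with siEhd1 at rest. Cysltr1 averaged 72.7 ± 0.838 CPM in LPS siEhd1 against 75.4 ± 5.97 CPM in LPS siControl cells, and 24.3 ± 0.660 CPM in resting siEhd1 against 19.3 ± 1.65 CPM in resting siControl cells. It rose with siEhd1 at rest (0.34, SE 0.07, edgeR adjusted p = 0.00161). Its difference between states (-0.39, SE 0.10, edgeR adjusted p = 0.0178) was lost without resting siEhd1 replicate 2 or resting siControl replicate 1 (adjusted p up to 0.0675). Cysltr2 fell at rest to 0.754 ± 0.193 CPM with siEhd1, against 1.61 ± 0.0948 CPM with siControl (-1.09, SE 0.25, edgeR adjusted p = 0.00231), a call that held under all 21 alternatives. The leukotriene B4 receptor gene Ltb4r1 rose with LPS by 1.99 with siEhd1 and 2.17 with siControl.

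**Figure D4:**
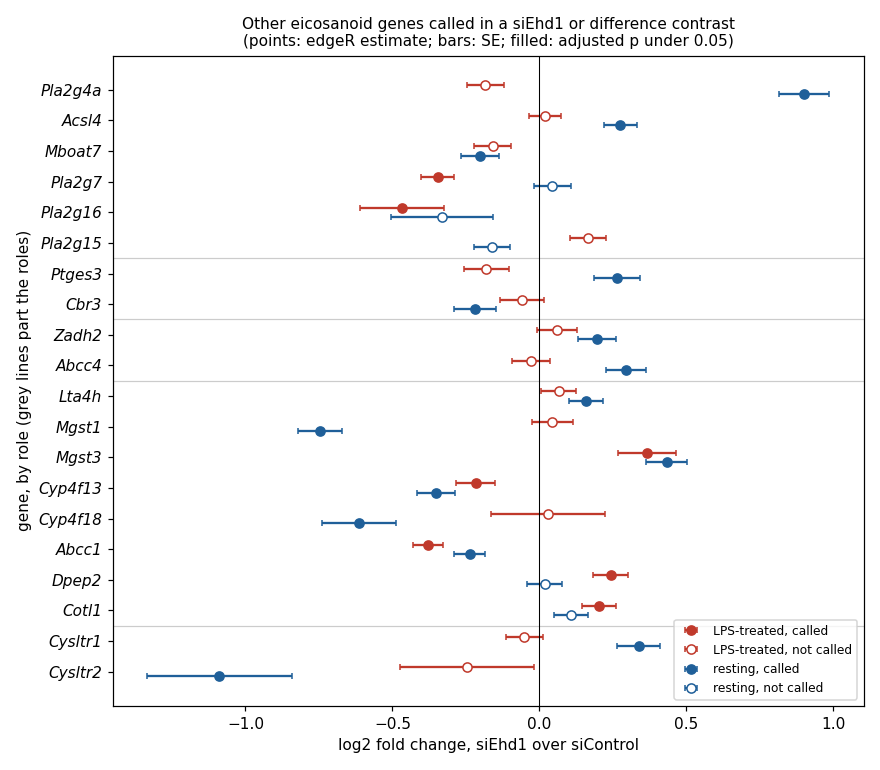
Log2 fold change, siEhd1 over siControl, with its SE, for the other pathway genes called in a siEhd1 contrast or in the difference between states (20 genes, grouped by role), with filled points for an edgeR adjusted p under 0.05. Pla2g4a lies at -0.18 after LPS and 0.90 at rest, Mgst1 at 0.04 after LPS and -0.75 at rest, and Abcc1 left of 0 in both states.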

How the data were processed

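The values are raw counts by gene symbol, deposited by the authors in separate tables for LPS-treated and resting libraries. The submitters' processing notes name build mm10 and, without roles, R 4.4.2, DESeq2 1.46.0, featureCounts 2.20.0, STAR 2.7.6a, cutadapt, Trim Galore 0.6.3 and FastQC 0.10.1. Not given in the sources used here are the strand setting, the annotation and how multi-mapping reads were treated.

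Columns were matched to samples by library number, and 0 columns stayed unused. The test was the quasi-likelihood test of edgeR 4.0.16 (limma 3.58.1, R 4.3.3): filterByExpr (minimum count 10, minimum total 15) left 12164 of 17270 genes with a count, followed by TMM scaling and a robust fit of 4 group means over 12 libraries (8 residual degrees of freedom). Adjusted p-values are Benjamini-Hochberg over all tested genes with a threshold of 0.05, and SE is |log2 fold change| over the root of F. The fit was run on simulated counts with changes planted only in the resting siEhd1 libraries, and was checked for calling most of the larger ones at rest. No LPS effect was planted, so that check does not cover the LPS contrasts. Alternatives were DESeq2 1.42.0, limma-voom, RLE and upper quartile scaling, no filter, 1 CPM in 3 libraries, only the groups compared, replicate blocks and leaving out each library. Within groups, the chi-square of library pairs per degree of freedom was 3.10 to 24.8, above sampling noise, and highest for LPS siControl replicates 1 and 3. Each library counted as 1 replicate, but this spread does not show that libraries are separate cultures or animals.

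Gene positions and exon lengths are from GENCODE M21 (GRCm38), promoters from RefSeq (GRCm38.p6). The named genes were the 10, Ehd1, every listed pathway gene called in a siEhd1 contrast or in the difference, and of each role list the smallest p-values in the LPS contrast with siControl. Ptges2 and Ptger1 were named outside this rule, after their values were seen. The genes and lists were chosen with earlier results of these data known.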

Additional observations from a re-analysis of the deposited data

Results flagged for a closer look

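The siEhd1 effect differed between LPS-treated and resting cells, by the edgeR test of the difference itself, for Ptger2 among the 10 genes and for 7 other pathway genes. For Ptger2 the effect in LPS-treated minus resting cells was 0.61 on the log2 scale, with siEhd1 libraries below siControl libraries at rest and overlapping them after LPS. It was -1.08 for Pla2g4a, -0.39 for Pla2g7, -0.44 for Ptges3, -0.32 for Abcc4 and -0.39 for Cysltr1. It was 0.79 for Mgst1 and 0.33 for Pla2g15. Over all genes 3.12% were called higher and 2.93% lower in this difference. The call held under all 20 alternatives for Ptger2, Pla2g4a, Pla2g7 and Mgst1. It was lost under 2 of 20 for Cysltr1, 4 for Ptges3, 6 for Pla2g15 and 15 for Abcc4. Groups of 3 libraries are too small for a check of single outlying libraries.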

How the results depend on the processing

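With 21 alternatives for each comparison (20 for the difference between states), the LPS effects on the 10 genes kept their direction and their call in all 420 refits. Of the siEhd1 refits of the 10 genes, 197 of 210 at rest and 203 of 209 after LPS kept both. The number of the 10 genes called in the difference was 2 in place of 1 with DESeq2, without a low count filter and with the replicate block shared by all groups, each time by adding Ptgs2, and ranged from 1 to 2 when 1 library was left out. Over all genes, calls in the difference ranged from 243 to 429 higher and 209 to 418 lower when 1 library was left out, against 379 and 356 with all. Likewise they ranged from 1148 to 1857 lower at rest (1728 with all), and from 304 to 594 higher and 303 to 506 lower after LPS (540 and 499 with all). The replicate block within each table gave 232 genes lower in the difference. Same-numbered libraries did not deviate together in every pair, so the numbers are not taken to pair libraries, and the block changed no call of the 10 genes except that of Ptgs2 in the difference.

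Effects near 0 that were not called changed sign. The difference for Ptger4 was 0.002497 with DESeq2 and 0.002454 with RLE factors, and ranged from -0.0569 to 0.058 when 1 library was left out. For Alox5ap it was -0.00906 with upper quartile scaling and -0.000514 without a filter, and ranged from -0.0244 to 0.0284. For Ptgs1 it ranged from -0.1665 to 0.1149, and the resting siEhd1 effect on Alox5 from -0.2027 to 0.0639. Upper quartile scaling moved the median of all genes by -0.11 for LPS with siEhd1 and changed the share of higher calls there to 38.4%, against 49.2% with TMM. The cause was not tested. Resting Ptgs2 and Ptges and, after LPS, Ptgs1, Ltc4s, Alox5 and Hpgd rest on few counts, which limits their precision.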
